A study of Mus musculus with 46 samples.

Results

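Genes for the beta subunits of the sodium pump and for ion and water transport were followed in single fluorescent cells of the mouse cochlea. The 7 genes, chosen by symbol from the 29871 genes measured, were Atp1b1, Atp1b2, Atp1b3, Slc12a2, Kcnj16, Aqp1 and Kcnma1. Their levels were read in all 46 cells, taken from C57BL/6 mice at postnatal day 10. The mice carried Dio2creERt2, a tamoxifen-activated Cre recombinase driven from the gene for the type 2 deiodinase, and the Ai6 reporter. All cells share these alleles and there is no control group. Once Cre has recombined the reporter, a cell and its progeny keep the fluorescence, so the signal does not show that a cell made Cre when it was picked. The tamoxifen dose is not given in the sources used here. Cochleae were dissociated with papain, and single fluorescent cells were picked by hand and amplified as full-length cDNA. No animal is named for any cell, so the 46 cells count as 1 sample, cells were not tested against each other, and every spread given below is between cells.

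The sodium pump exchanges sodium for potassium across the cell membrane. Its catalytic alpha subunit needs a beta subunit to fold and reach the membrane, and small FXYD proteins tune its activity. In the lateral wall of the cochlea, fibrocytes take up potassium with the pump and with the sodium-potassium-chloride cotransporter NKCC1, the product of Slc12a2, and pass it through gap junctions toward the stria vascularis. Kcnj16 encodes an inwardly rectifying potassium channel subunit that assembles with the product of Kcnj10. Aqp1 encodes a water channel, and Kcnma1 the pore-forming subunit of the BK channel, a potassium channel opened by calcium and by depolarization.

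The cells were put into classes by the level of 1 marker each, in reads per 1000000 reads (CPM). Ibsp, the bone sialoprotein gene, was at 1000 CPM or more in 12 cells. Otos, the gene of the fibrocyte protein otospiralin, was at 1000 CPM or more in 9 cells. C1qb, a complement gene of macrophages, was at 500 CPM or more in 4 cells. These classes are called Ibsp-high, Otos-high and C1qb-high, and 21 cells remained. No cell passed 2 limits, and the gaps at the limits were wide. The lowest Ibsp-high cell had 7618 CPM of Ibsp and the next cell below it 107 CPM. For Otos these values were 1213 and 112 CPM, and for C1qb 3048 and 148 CPM. Lists of markers were then read by class. The osteoblast, fibrocyte and macrophage lists include Ibsp, Otos and C1qb, whose presence in their own classes was fixed by the limits. The other markers of each list were found in the class of that name, but not all of them only there. A gene was called present in a cell at 10 CPM or more and at no less than 1% of its mean over the 46 cells. Each of the 9 osteoblast markers was present in 9 to 12 of the 12 Ibsp-high cells. All 8 fibrocyte markers were present in each of the 9 Otos-high cells. Of these markers, Coch and Pou3f4 were also present in all 12 Ibsp-high cells and Car3 in 10, while Gjb6 was present in none of them. Cell 30, a remaining cell, had all 8 fibrocyte markers. Cell 42, another remaining cell, had 6 of the 9 osteoblast markers. Of the 7 macrophage markers, 6 were present in all 4 C1qb-high cells and Ptprc in 3. Fibrocyte markers also summed to 1689 to 36238 CPM in the Ibsp-high cells and to between 127 and 118037 CPM in the remaining cells, so the remaining cells are not a single type. The cells are numbered in the labels, and cells 1 to 12 are the Ibsp-high cells while 43 to 46 are the C1qb-high cells. The Otos-high cells are 23 to 29, 31 and 32, and the remaining cells are 13 to 22, 30 and 33 to 42. Class and the order of numbering cannot be told apart for any class. Differences among the remaining cells may follow this order as well. Reads in the listed genes ran from 2522853 to 10350249 per cell, and genes at 1 CPM or more from 3351 to 7143.

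Of the pump's beta subunit genes, Atp1b3 was present in all 46 cells, Atp1b2 in 22 and Atp1b1 in 6. The genes lie apart in the mouse genome (GRCm38, GENCODE vM21). Atp1b1 spans chr1:164437109-164458355, Atp1b2 chr11:69599736-69605942 and Atp1b3 chr9:96332655-96364442, all on the minus strand. Their transcripts share no exact run longer than 19 bases. The sequences upstream of the start of the beta subunit gene found in every cell and of the one found in the fewest are shown for comparison, with the upstream sequence of Aqp1, which was present in some cells of most classes. Each is 250 bases, taken from RefSeq (GRCm38.p6), read on the gene's own strand and ending just before the start annotated there. For Atp1b3 and Aqp1 that start is not the same as the GENCODE vM21 start of the gene. The positions are chr1:164458356-164458605 for Atp1b1 and chr9:96364432-96364681 for Atp1b3, both on the minus strand, and chr6:55336049-55336298 on the plus strand for Aqp1. Capitals mark the GC box, with the letters GGGCGG, and the CCAAT box, each also where it reads on the other strand.
Atp1b3: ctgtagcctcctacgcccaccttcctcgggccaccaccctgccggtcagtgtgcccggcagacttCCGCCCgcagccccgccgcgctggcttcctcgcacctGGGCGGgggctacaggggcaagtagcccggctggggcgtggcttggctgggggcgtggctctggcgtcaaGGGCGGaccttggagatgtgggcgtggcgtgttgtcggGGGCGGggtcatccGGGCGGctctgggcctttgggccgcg
Atp1b1: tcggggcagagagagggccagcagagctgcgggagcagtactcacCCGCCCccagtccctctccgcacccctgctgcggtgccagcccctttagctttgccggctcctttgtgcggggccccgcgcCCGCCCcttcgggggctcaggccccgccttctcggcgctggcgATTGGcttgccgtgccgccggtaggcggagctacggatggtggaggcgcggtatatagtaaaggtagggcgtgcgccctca
Aqp1: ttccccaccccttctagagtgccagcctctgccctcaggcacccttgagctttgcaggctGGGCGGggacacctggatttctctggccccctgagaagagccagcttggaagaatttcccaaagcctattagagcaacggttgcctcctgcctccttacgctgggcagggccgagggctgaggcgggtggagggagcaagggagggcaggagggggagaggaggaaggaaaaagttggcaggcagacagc
The window of Atp1b3 held 5 GC boxes, that of Atp1b1 2 and that of Aqp1 1. A CCAAT box was found in the window of Atp1b1 and not in the other two. Among 32851 promoter windows of this length, 32.7% held a GC box and 33.8% a CCAAT box on either strand. These matches describe the letters only. Both strands were also searched for the TATA box (TATAAA, in 12.4% of all windows), for the canonical E-box (CACGTG, in 6.02%), for the RUNX core (TGTGGT, in 14.05%) and for the nuclear receptor half-site (AGGTCA, in 14.02%), and no match was in these 3 windows. None of the marked boxes overlapped another.

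**Figure D1:**
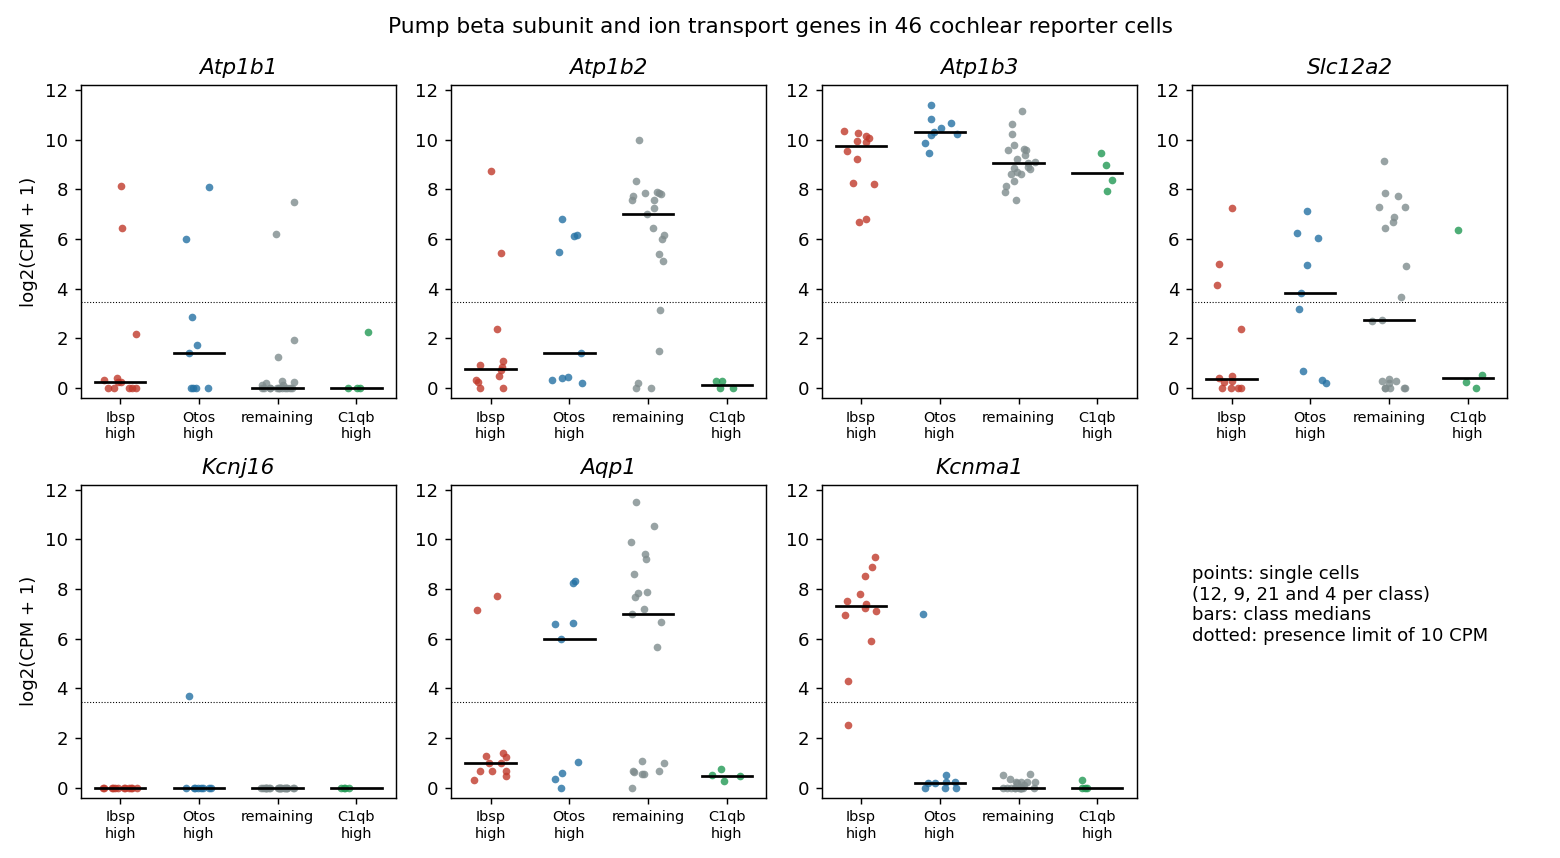
Level of each of the 7 genes in log2(CPM + 1), on the vertical axis, in single cells (points) of the 4 classes, with class medians as bars and the presence limit of 10 CPM as a dotted line. Atp1b3 lies above the limit in all 46 cells, Kcnma1 lies above it in 11 of 12 Ibsp-high cells and in 1 other cell, and Kcnj16 in 1 cell.

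Atp1b3 encodes the beta subunit with the widest distribution here. In the Ibsp-high cells it ran from 101 CPM through a median of 855 to 1294 CPM. In the Otos-high cells the lowest value was 703, the median 1282 and the highest 2711 CPM. In the remaining cells these were 191, 536 and 2294 CPM. The C1qb-high cells had 244, 499, 709 and 328 CPM in cells 43 to 46. All ranges overlap, and the lowest Otos-high cell lies above the median of the remaining cells. On the log2(CPM + 1) scale the mean was 10.38 ± 0.56 (SD, n = 9 cells) in the Otos-high class, 9.13 ± 0.88 (n = 21) in the remaining cells, 9.11 ± 1.32 (n = 12) in the Ibsp-high class and 8.68 ± 0.67 (n = 4) in the C1qb-high class. The step from Otos-high to remaining cells, 1.25, exceeded the pooled SD over cells of 0.80. The lower neighbours in this order differed by less than their SD.

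Atp1b2 encodes a beta subunit known from glia, where it was described as an adhesion molecule. It was present in 16 of the 21 remaining cells (76.2%, exact Clopper-Pearson 95% interval 52.8% to 91.8%, counting error only). The remaining cells ran from 0 through a median of 127 to 1025 CPM, the highest being cell 36. Among the Otos-high cells it was present in 4 of 9, and the values ran from 0.140 through 1.62 to 112 CPM. In the Ibsp-high class it was present in cells 1 and 6 of the 12, with a median of 0.727 and a highest value of 420 CPM in cell 1. In the C1qb-high cells it did not exceed 0.233 CPM. The classes overlap, since every class except C1qb-high had cells above and below the limit. The mean on the log2 scale was 5.75 ± 3.0 in the remaining cells (n = 21), 3.03 ± 2.99 in the Otos-high (n = 9), 1.77 ± 2.66 in the Ibsp-high (n = 12) and 0.15 ± 0.17 in the C1qb-high cells (n = 4). Each neighbouring step was smaller than the SD of the higher class.

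Atp1b1 encodes the beta subunit best known from kidney and from the marginal cells of the stria vascularis. It was present in 6 cells spread over the 3 classes without C1qb. In the Ibsp-high class these were cell 9 with 85.8 and cell 12 with 276 CPM. In the Otos-high class they were cell 24 with 272 and cell 27 with 62.9 CPM. Among the remaining cells they were cell 16 with 178 and cell 39 with 72.0 CPM. Every other cell was below the presence limit, and the C1qb-high cells did not exceed 3.84 CPM. Atp1b1 overlaps the gene Nme7 on the opposite strand, and the use of strand in counting is not given in the sources used here. Nme7 was present in 5 of the 6 cells with Atp1b1, cell 39 being the exception, and in 6 cells without it. Cell 17 had Nme7 at 73.9 CPM with no read of Atp1b1. Without a known strand setting, reads from the stretch where the genes overlap cannot be assigned to either. Markers of marginal cells were at or near 0 in all cells, apart from Lrp2 in cell 24. That cell also held the melanocyte genes Dct at 1904 and Tyr at 192 CPM beside Otos at 7832 CPM. Both are from a list of 6 markers of the intermediate cells of the stria. Of the others Met was present in cell 24, Mlana and Pmel were not, and Mitf was at 0. Dct was present in 4 of 9 Otos-high cells. The part of a second cell type in the Atp1b1 of cell 24 was not tested.

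Within each cell, Atp1b3 was alone among the beta subunit genes in 20 cells. It was joined by Atp1b2 in 20 cells, by Atp1b1 in 4 and by both in 2, cells 16 and 27. Atp1b3 was alone in 8 of 12 Ibsp-high, 4 of 9 Otos-high, 4 of 21 remaining and 4 of 4 C1qb-high cells. Atp1b2 and Atp1b3 together, without Atp1b1, were the set of 15 of 21 remaining, 3 of 9 Otos-high and 2 of 12 Ibsp-high cells. At a presence limit of 1 CPM in place of 10, Atp1b3 was alone in 12 cells, of which 5 were Ibsp-high and 1 Otos-high. No read of Atp1b4, a further beta family gene, was recorded in any cell.

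To compare levels between genes, CPM were divided by the length of the longest basic transcript in kb, which puts them on a scale per length. On that scale Atp1b3 was the highest beta gene in 45 of 46 cells. The exception was cell 12, an Ibsp-high cell where Atp1b1 made up 65.9% of the beta total. The median share of Atp1b3 in the beta total was 97.4% over all cells, 99.7% in Ibsp-high, 98.9% in Otos-high, 99.9% in C1qb-high and 85.0% in remaining cells. The remaining cells thus had the lowest median share, with single cells between 51.8% and 100%. The share of Atp1b2 reached 48.2% in cell 36, 35.9% in cell 35 and 33.1% in cell 34, all remaining cells, and 33.3% in the Ibsp-high cell 1. The beta total per length ran from 50.6 to 650.3 CPM per kb in Ibsp-high, from 354 to 1375 in Otos-high, from 123 to 357 in C1qb-high and from 140.3 to 1151 in remaining cells.

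**Figure D2:**
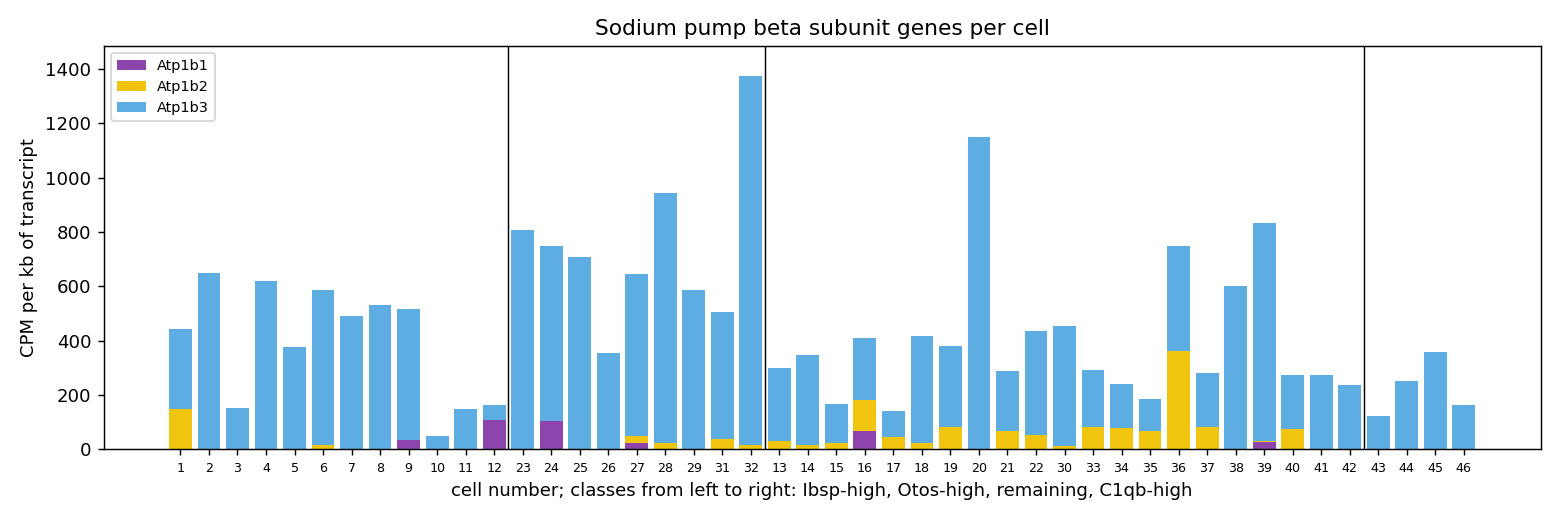
Stacked CPM per kb of transcript of the beta subunit genes in each of the 46 cells, ordered by class and separated by vertical lines. Atp1b3 forms the largest part of the bar in 45 of 46 cells, and Atp1b2 reaches 48.2% of it in cell 36.

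Atp1b2 and Atp1b3 did not vary in the same direction from cell to cell. Their Spearman correlation was -0.18 over the 46 cells and -0.61 within the 30 Otos-high and remaining cells. These cells share their handling, and depth and cell class vary between them. Atp1b1 had a correlation of -0.12 with Atp1b2 and of 0.15 with Atp1b3 over the 46 cells, and was present together with Atp1b2 in 2 cells.

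**Figure D3:**
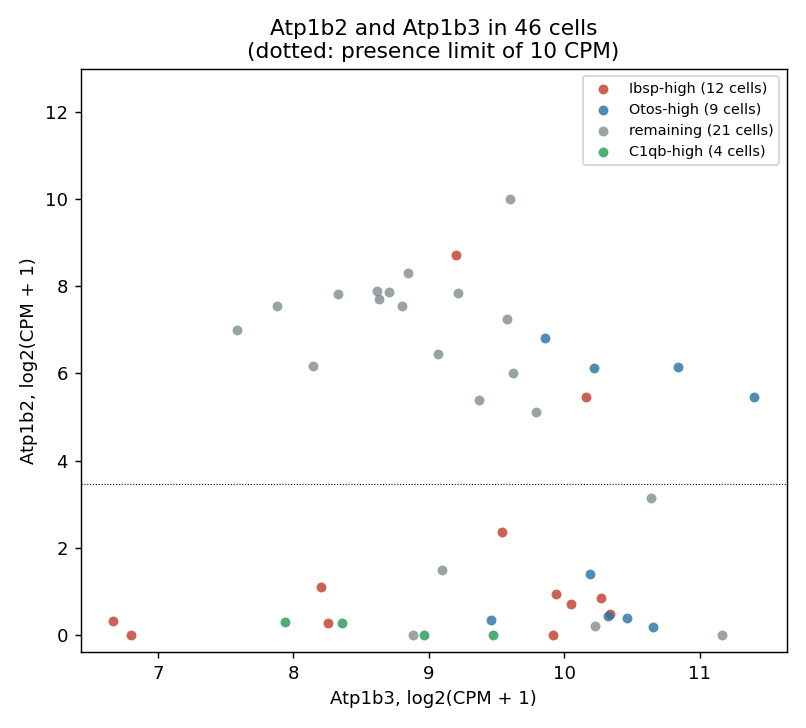
Level of Atp1b2 against that of Atp1b3 in the 46 cells, both in log2(CPM + 1), with colours for the 4 classes and a dotted line at the presence limit for Atp1b2. Atp1b2 lies above the line in 22 cells, 16 of them remaining cells, and Atp1b3 is at 101 CPM or more in every cell.

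The FXYD genes gave further detail on the pump. Fxyd1, the gene of phospholemman, was present in all 42 cells outside the C1qb-high class and in 0 of 4 C1qb-high cells, with medians of 71.8 CPM in Ibsp-high, 59.7 in Otos-high and 73.9 in remaining cells. Fxyd5, the gene of dysadherin, was present in 9 of 9 Otos-high cells with a median of 350.5 CPM, against 7 of 12 Ibsp-high, 14 of 21 remaining and 2 of 4 C1qb-high cells. Fxyd6 was present in 14 of 21 remaining, 6 of 9 Otos-high, 2 of 12 Ibsp-high and 0 of 4 C1qb-high cells. Fxyd2, Fxyd3 and Fxyd7 were each present in 2 cells and Fxyd4 in none. Of the 7 FXYD genes, 3 were measured at 1 CPM or more in 5 or more cells, the limit for the comparisons below.

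Slc12a2 encodes NKCC1 and lies on chromosome 18 (57878678 to 57946821, plus strand). It was present in 19 cells. Among the remaining cells it was present in 10 of 21, from 0 through a median of 5.75 to 560.3 CPM, the highest in cell 34. Among the Otos-high cells it was present in 5 of 9, from 0.140 through 13.3 to 140.4 CPM. Of the 12 Ibsp-high cells 3 had it, with 16.6 CPM in cell 3, 151 in cell 7 and 31.2 in cell 12. Of the C1qb-high cells, cell 45 had it at 81.4 CPM. The classes overlap throughout. The mean on the log2 scale was 3.63 ± 2.7 in Otos-high and 3.55 ± 3.41 in remaining cells, 1.78 ± 3.06 in C1qb-high and 1.69 ± 2.46 in Ibsp-high cells (n = 9, 21, 4 and 12), and no neighbouring step exceeded the spread. Slc12a2 and Atp1b2 were present together in 12 cells, and 7 cells had Slc12a2 without Atp1b2.

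Other cation-chloride carriers were read beside Slc12a2. Slc12a4, the gene of the potassium-chloride cotransporter KCC1, was present in 12 of 12 Ibsp-high (median 454 CPM), 9 of 9 Otos-high (median 144 CPM), 14 of 21 remaining and 1 of 4 C1qb-high cells. Slc12a7, which encodes KCC4, was present in 5 of 12 Ibsp-high, 0 of 9 Otos-high, 3 of 21 remaining and 0 of 4 C1qb-high cells. Stk39, the gene of a kinase that activates NKCC1, was present in 8 of 12, 3 of 9, 12 of 21 and 0 of 4 cells in that order. Slc12a1, Slc12a3, Slc12a5 and Wnk3 were present in none of the cells.

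Kcnj16 (chr11:110968033-111027968, plus strand) was read in 1 cell only, the Otos-high cell 26, with 11.8 CPM from 45 reads. No read of it was recorded in the other 45 cells. For a count of 0, the upper limit of 3 reads over all reads of a class came to 0.0547 CPM in the Ibsp-high, 0.158 CPM in the C1qb-high and 0.0237 CPM in the remaining cells. These limits cover counting error only. The cDNA was amplified and no molecular identifiers were used, so they do not bound expression in a cell. Cell 26 also held the myelin gene Mbp at 1095 CPM and Dmp1, a gene of mature bone cells, at 4677 CPM, beside Otos at 10274 CPM, and their part in its Kcnj16 was not tested. Kcnj10, whose product pairs with that of Kcnj16, was present in no cell. Of 14 other inwardly rectifying channel genes listed, 4 were present in any cell, each in 1 or 2 cells. Kcnj13 was present in cells 13 and 24, and Kcnj8 in cells 26 and 33.

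Aqp1 (chr6:55336432-55348555, plus strand) was present in 20 cells. Among the remaining cells it was present in 13 of 21 (61.9%, interval 38.4% to 81.9%), from 0 through a median of 127 to 2916 CPM, which was the highest value of any of the 7 genes. Among the Otos-high cells it was present in 5 of 9, from 0 through 62.5 to 321 CPM. In the Ibsp-high class cells 7 and 11 had 210.4 and 141 CPM and the other 10 at most 1.61 CPM. The 4 C1qb-high cells lay between 0.202 and 0.698 CPM. Cells were thus either well above the limit or near 0, and the classes overlap. The mean on the log2 scale was 5.44 ± 4.07 in remaining (n = 21), 4.20 ± 3.60 in Otos-high (n = 9), 1.97 ± 2.58 in Ibsp-high (n = 12) and 0.50 ± 0.20 in C1qb-high cells (n = 4), and each step was smaller than the SD of the higher class. Among the remaining cells, Aqp1 was under the limit in 8, cells 17, 33 to 38 and 40, with at most 1.13 CPM, and Atp1b2 was present in all of these except cell 38. Of the 11 other aquaporin genes listed, Aqp2, Aqp5 and Aqp11 were present in 3, 1 and 3 cells and the other 8 in none. Endothelial markers were limited to Emcn, Cdh5 and Pecam1, while Kdr, Tie1 and Cldn5 were present in no cell, and erythroid markers summed to at most 29 CPM.

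Kcnma1 (chr14:23289431-24014491, minus strand) was present in 11 of 12 Ibsp-high cells (91.7%, interval 61.5% to 99.8%). The values in this class ran from 4.79 through a median of 158 to 617 CPM, the lowest in cell 3 and the highest in cell 12. Outside the class it was present in cell 26 alone, at 128 CPM. Each of the other 33 cells, with 0.462 CPM at most, lay below the lowest Ibsp-high cell. Cell 26 was the only one to overlap with the Ibsp-high class, and without it the mean difference between Otos-high and remaining cells went from 0.80 to 0.05. Cell 26 also had Dmp1 at 4677 CPM, with Sp7 at 1.31 and Ibsp at 23.8 CPM. Cell 20, a remaining cell, had Sp7 at 704, Runx2 at 292 and Dmp1 at 21979.5 CPM, but Ibsp at 27.7 and Alpl at 3.72 CPM. Its Kcnma1 was at 0.162 CPM. A link of Kcnma1 to any of these genes was not tested. Kcnma1 overlaps 4 genes on the opposite strand, of which the 2 that are listed, 5430425E15Rik and 4930519K11Rik, were at 0 in all cells.

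Genes of the BK channel's partner subunits were few. Kcnmb4, which encodes a beta subunit, was present in the Ibsp-high cells 4, 5 and 12 at 23.9, 64.5 and 147 CPM and in the C1qb-high cell 43 at 20.2 CPM. Lrrc38, which encodes a gamma subunit, was present in 4 of 9 Otos-high and 7 of 21 remaining cells and in no Ibsp-high cell, so no cell had Lrrc38 and Kcnma1 together. Kcnmb3 was present in cells 12 and 35 and Lrrc55 in cell 42. Kcnmb1, Kcnmb2, Lrrc26 and Lrrc52 were present in no cell.

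Class differences were set against those of all genes at 1 CPM or more in 5 or more cells, 11447 in number. A difference was called when the means of log2(CPM + 1) differed by 2 or more. Between Ibsp-high and Otos-high cells 9.94% of these genes were called higher and 8.46% lower. Of the 6 members that passed the limit (Kcnj16 did not), Kcnma1 was called higher, by 6.02 (pooled SD over cells 2.08), and Aqp1 lower, with a difference of -2.23. Against the remaining cells the Ibsp-high class had 6.31% of genes called higher and 4.58% lower, and of the members Kcnma1 was higher by 6.83 while Atp1b2 (-3.98) and Aqp1 (-3.47) were lower. Between Otos-high and remaining cells 5.75% of genes were called higher and 4.2% lower. There Atp1b2 alone among the members was called, with -2.72. The difference of Atp1b2 between Otos-high and remaining cells was -1.96 without cells 24 and 26, and that of Aqp1 between Ibsp-high and Otos-high cells was -1.92, -1.93, -1.71 and -1.72 without cell 24, 28, 31 or 32, all short of the size limit. Slc12a2 lay just short of the limit, at -1.94 between Ibsp-high and Otos-high and -1.86 between Ibsp-high and remaining cells, and reached -2.45 and -2.37 without cell 7. Of the 13 cells with Kcnma1 at 1 CPM or more 12 were Ibsp-high, so it passed the expression limit through the class where it is high, and its calls there carry no weight as a count. Over all 29871 genes, with no such limit, 3.82% were higher by 2 or more in Ibsp-high than in Otos-high cells and 2.44% than in remaining cells. Medians over all genes were 0.13, 0.09 and -0.05 in the 3 comparisons, against -1.27, -0.94 and 0.44 over the 6 members. These describe differences between cells of 1 sample.

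**Figure D4:**
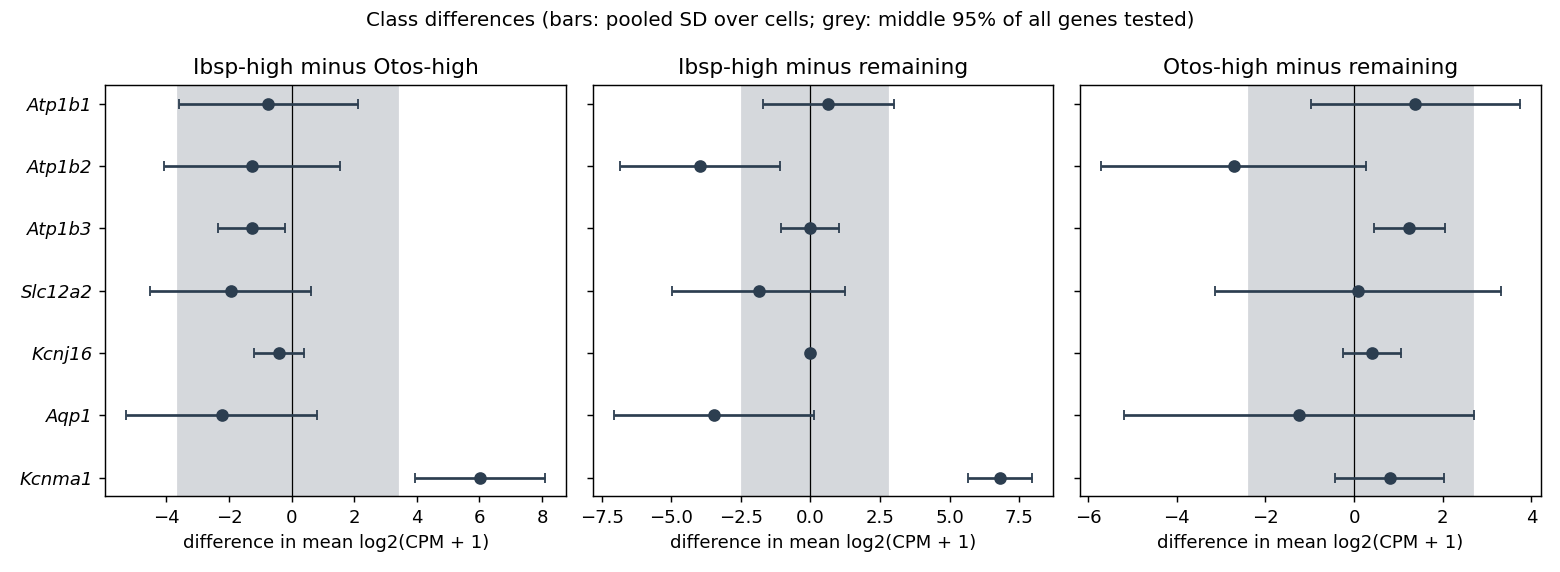
Difference in mean log2(CPM + 1) of each of the 7 genes between classes, with bars of 1 pooled SD over cells and the middle 95% of all genes tested in grey. Kcnma1 lies outside the grey range in both comparisons with the Ibsp-high class, and Atp1b2 and Aqp1 lie below it in the comparison of Ibsp-high with remaining cells. Atp1b2 also lies below it between Otos-high and remaining cells.

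The C1qb-high cells were set against the 42 other cells. There 12.4% of genes were called higher and 14.2% lower, and Atp1b2 (-3.89), Aqp1 (-3.68) and Kcnma1 (-2.17) were called lower. The 42 cells include the Ibsp-high cells, where the mean of Kcnma1 on the log2 scale was 6.95, against 0.13 in the remaining cells. Low Kcnma1 is thus not particular to the C1qb-high cells, and its call carries no weight here either. Mean log2 levels of Atp1b2 and Aqp1 were also low in the Ibsp-high class, at 1.77 and 1.97. Low levels of these genes are thus not particular to the C1qb-high cells. Atp1b3 differed by -0.71. With 4 cells, the share that a count of 0 allows is wide, and the interval for 0 of 4 reached 60.2%. Atp1b3 was the only beta subunit gene above the limit in the C1qb-high cells.

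Other ion transport genes of the lateral wall were read for comparison, from a list of 30 of which 16 were measured in 5 or more cells. Kcnk1, the gene of a background potassium channel, was present in 8 of 9 Otos-high (median 393 CPM), 0 of 12 Ibsp-high, 4 of 21 remaining and 0 of 4 C1qb-high cells. Trpv4, a calcium-permeable channel gene, was present in 6 of 12 Ibsp-high cells, in 0 of 9 Otos-high and 0 of 21 remaining cells and in 1 of 4 C1qb-high cells, cell 43 with 184 CPM. Atp2b1, a plasma membrane calcium pump gene, was present in 10 of 12 Ibsp-high, 2 of 9 Otos-high, 12 of 21 remaining and 4 of 4 C1qb-high cells. Of the 16, 2 were called higher and 2 lower between Ibsp-high and Otos-high cells, where 9.94% and 8.46% of all genes were. Against all other cells the C1qb-high cells had 6 of the 16 called higher (Slc4a2, Slc4a7, Slc8a1, Atp2b1, Kcnk6 and P2rx4) and 1 lower (Ano6), where 12.4% and 14.2% of all genes were. Trpv4 and Kcnk1 passed the limit of 5 cells only through the class where each is high, and Slc8a1 and Kcnk6 only through the C1qb-high cells. These counts of called genes thus carry no weight. Slc26a4, the pendrin gene, and the stria genes Kcnq1, Kcne1 and Bsnd were present in no cell.

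For each member with values in more than 1 cell, the genes most like it over the 46 cells were ranked by Spearman correlation among the 7024 candidates. Kcnma1 was most like Fap (0.76), Pth1r, the parathyroid hormone receptor gene (0.69), and Wnt5b (0.67). Genes close to Atp1b2 were Twsg1 (0.60) and Plpp3 (0.60). Atp1b3 was most like Amd2 (0.63), Tmem45a (0.59) and Amd1 (0.57), of which Amd1 and Amd2 are related genes of a polyamine enzyme. Aqp1 came with Fam228a (0.59), Cald1 (0.58) and Col8a2 (0.58), and Slc12a2 with Capza1 (0.53), Zcchc18 (0.50) and Ago3 (0.48). Atp1b1 was most like Acad8 (0.57), the overlapping gene Nme7 (0.55) and Apmap (0.52). All of these vary with class, library and depth as well, and Kcnj16 rests on 1 cell and was not ranked here.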

How the data were processed

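Expression was measured in 46 single cells, each a sample. The authors deposited CPM (reads per 1000000) for 29871 genes, a unit named in the file headers. Per the submitters' processing notes the tools included bcl2fastq 2 and STAR 2.7.3a, and the builds GRCm38 and mm10. For the counting program, annotation and strand setting, nothing was given in the sources used here. Listed genes summed to 86.4% to 93.5% of 1000000 per cell. All values above 0 (100%) were whole multiples of a step per cell, within 0.01 read, which gave reads per cell. No molecular identifiers were used, so intervals cover counting error only. With 1 labelled group and no animal named, a count test on these reads could not be run.

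Computed here with Python 3.11.15, pandas 2.3.3 and scipy 1.17.1 were means of log2(CPM + 1), differences of 2 or more, presence at 10 CPM, and levels per kb of the longest basic protein-coding transcript in GENCODE vM21. The fold scale understates changes of low genes. The members and all gene lists were chosen with earlier results of these data known. Named genes are all members, beta subunits and up to 4 genes per list by the largest difference, and the 3 genes most like each member. Further genes were named after their values were seen, and some genes the rule names are not reported here. All 177 listed symbols matched by symbol. The code for class differences was tested on simulated data. These lacked the changes between absent and high from cell to cell seen here, so their error rate does not carry over.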

Additional observations from a re-analysis of the deposited data

How the results depend on the processing

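The pseudocount set the size of the largest difference. The excess of Kcnma1 in Ibsp-high over Otos-high cells was 8.21 with a pseudocount of 0.1 CPM and 3.41 with 10 CPM, against 6.02 as reported, and over the remaining cells it was 9.54 and 3.84 against 6.83. The presence limit moved counts of pump genes. At 1 CPM, Atp1b1 was present in 13 cells, against 6 at the limit used, Atp1b3 was the only beta gene in 12 (20 at the limit used), it was joined by Atp1b1 only in 7 (4) and by both others in 6 (2). Atp1b3 was then alone in 5 Ibsp-high (8) and 1 Otos-high cell (4), and paired with Atp1b2 in 4 Ibsp-high cells (2), or in 1 at 50 CPM. With coding length in place of transcript length Atp1b2 was the highest beta gene in 1 cell, against 0. With a pseudocount of 10 CPM, Atp1b2 between Otos-high and remaining cells (-1.75) and Aqp1 between Ibsp-high and Otos-high cells (-1.42) came under the size limit. The latter was also -1.71 with class limits doubled. Slc12a2 passed the limit in some settings, with -3.05 (Ibsp-high minus Otos-high) and -2.39 (Ibsp-high minus remaining) at a pseudocount of 0.1 CPM. Leaving out cells 24 and 26, or cell 31, was chosen after seeing the data. Over all the settings that kept every cell or left out the named cells, 274 values moved by less than the spread between cells or by less than 1.5 times for counts, and 13 moved by more. Leaving out each cell in turn gave 588 values, all within that spread. Removal of 1 cell cannot move a mean of classes this large by more, so this carries no weight. Calls did change, for Slc12a2 without any of 7 cells (Ibsp-high minus Otos-high) or 12 cells (Ibsp-high minus remaining). For Aqp1 (Ibsp-high minus Otos-high) the call was lost without any of 4 cells. No difference past the size limit changed sign, while some near 0 did, such as that of Atp1b3 between Ibsp-high and remaining cells (-0.13 to 0.20). No paired analysis was possible because there is 1 group. Depth limits low values: a gene under the presence limit may be expressed, and cells of 1 class cannot show how cells of other animals vary.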
